A study of Homo sapiens with 4 samples.

Results

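The YAP/TAZ target genes described here are MYOF, ANKRD1, ASAP1, AXL, CRIM1, FOXF2, CCDC80, NT5E, DOCK5 and ARHGEF17. The 10 genes were taken from a list of names, by gene symbol, and were found as 10 of the 20286 Ensembl identifiers in the deposited count files. They belong to a widely used set of 22 YAP/TAZ target genes, whose other members include CYR61, CCN2 and the Hippo pathway genes AMOTL2, LATS2 and PTPN14. The cells were HLE, an established line from a human hepatocellular carcinoma. In 1 group the cells stably expressed CYR61, a CCN family protein that cells secrete into the matrix, now named CCN1 (2 libraries), and in the other they stably carried an empty vector (2 libraries). Per the series description, the replicates of each group were separate cultures of the whole stable population. So p-values measure the spread between libraries of separate cultures and not between separately made lines. Which promoter drives the CYR61 construct is not stated in those sources.

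YAP and TAZ are transcription co-activators that are held in the cytoplasm and degraded when the Hippo kinases LATS1 and LATS2 phosphorylate them. In the nucleus they act mainly through the TEAD DNA-binding proteins, often together with AP-1 and often at enhancers far from the gene. CYR61 is itself among the best known genes they switch on, and ANKRD1 is a standard readout of their activity. The pathway restrains the size of the liver in mice, and YAP is frequently active in liver cancer.

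TEAD proteins recognise the letters GGAATG, or CATTCC on the opposite strand. The windows around the start sites of the members were searched for them because YAP and TAZ act mainly through TEAD proteins. RefSeq windows (GRCh38.p14) from 250 bases before to 50 bases after a start were found for 6 members, MYOF, ANKRD1, AXL, FOXF2, CCDC80 and NT5E, with 2 starts for AXL. None was matched for ASAP1, CRIM1, DOCK5 and ARHGEF17. On both strands, the TEAD letters were present in 3 of the 7 windows, those of ANKRD1, FOXF2 and the second start of AXL but not its first, and in 14% of 35116 windows of all genes. The AP-1 letters TGANTCA, which read the same on both strands, were present only for ANKRD1 among the 7, and in 7.71% of all windows. A match is a description of the sequence and not a binding site, and the windows do not cover enhancers. In the stretches below, read 5′ to 3′ on the strand of the gene, capitals mark the TEAD and AP-1 letters. The AXL stretch is the 250 bases before its second start (GRCh38.p14 chr19:41226505-41226754, plus strand), with the opposite-strand form at 212 bases before the start. The FOXF2 stretch is the 250 bases before its start (chr6:1389326-1389575, plus strand), with a match at 196 bases before the start. ANKRD1 has TEAD letters at 220 and 128 bases before its RefSeq start and AP-1 letters at 195. Its first stretch covers chr10:90921276-90921337 and its second chr10:90921198-90921227, both on the minus strand. GENCODE 29 starts the gene further upstream and places 189 of the 250 bases before the RefSeq start in an exon, among them the whole near stretch, so the window is not given in full. All 250 bases before the NT5E start and 157 of those before the CCDC80 start also lie in GENCODE exons.
AXL: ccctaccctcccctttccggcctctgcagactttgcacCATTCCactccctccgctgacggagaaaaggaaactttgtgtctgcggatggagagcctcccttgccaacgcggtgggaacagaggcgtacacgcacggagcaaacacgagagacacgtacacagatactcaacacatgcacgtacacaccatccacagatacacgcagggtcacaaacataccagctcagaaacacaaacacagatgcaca
FOXF2: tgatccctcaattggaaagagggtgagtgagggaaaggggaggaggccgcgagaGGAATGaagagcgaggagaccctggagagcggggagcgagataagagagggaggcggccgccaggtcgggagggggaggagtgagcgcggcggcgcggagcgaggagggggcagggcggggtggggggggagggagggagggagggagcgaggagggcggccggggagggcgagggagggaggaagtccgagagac
ANKRD1 far: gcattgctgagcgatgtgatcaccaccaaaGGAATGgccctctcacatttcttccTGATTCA
ANKRD1 near: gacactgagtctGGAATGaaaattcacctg

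The files hold estimated counts per gene, with totals of 21388465 and 16186988 in the CYR61 libraries and 19118548 and 21588822 in the vector libraries. Values below are CPM, a gene's counts scaled to a common library total, after TMM scaling, an adjustment of the library sizes for composition, and differences are log2 fold changes of CYR61-expressing over vector cells. CYR61 itself, the check of the labels, was at 8091 and 8620 CPM in the CYR61 libraries and at 221.5 and 218.3 CPM in the vector libraries. The 7 hepatocyte markers summed to 4.61 and 4.76 CPM in CYR61 libraries and 6.85 and 5.12 CPM in vector libraries, most of it HNF4A (3.82 and 3.57 CPM against 5.79 and 4.12 CPM), with ALB, APOB and TTR at 0 in the 4 libraries. By contrast, the keratin gene KRT18 (1330 and 1418 CPM in CYR61 libraries, 1168 and 1055 CPM in vector libraries) and the mesenchymal gene VIM (1496 and 1770 CPM against 1958 and 1706 CPM) were abundant. Summed over the 5 epithelial markers the level was 4201 and 4663 CPM in CYR61 libraries and 3763 and 3239 CPM in vector libraries, with none called. Nearly all of this sum was KRT8 and KRT18. CDH1 was at 2.6 and 1.75 CPM in CYR61 libraries and 1.06 and 1.04 CPM in vector libraries. EPCAM was at 1.12 and 0.564 CPM against 0.319 and 1.36 CPM, and KRT19 had at most 2 counts in a library. Over all the marker lists, CDH1, KRT8 and KRT18 were higher at an unadjusted edgeR p below 0.05, and FN1 and the blood marker CD68 were lower. Of all tested genes, 22.9% reached that level in either direction. Of the 5 mesenchymal markers 1 was called lower, FN1 (28.7 and 28.4 CPM against 82.3 and 76.5 CPM). Their sum was 1639 and 1902 CPM against 2153 and 1892 CPM, most of it VIM, whose groups overlapped. CDH2 was at higher values without overlap (59.7 and 54.8 CPM against 49.7 and 51.7 CPM). ZEB1 was at lower values without overlap (31.8 and 25.4 CPM against 32.1 and 35.15 CPM). COL1A1 overlapped (23.1 and 23.9 CPM against 31 and 22.9 CPM). The part of these differences in the results below was not tested. Of the 3 blood markers, PTPRC and HBB had at most 2 counts in a library, while CD68 was at 48.2 and 53.3 CPM in CYR61 libraries and 67.2 and 62.7 CPM in vector libraries and was not called. Of the 3 endothelial markers, PECAM1 and KDR had at most 1 count in a library and CDH5 had 17 and 15 counts against 15 and 18. A lower level in such bulk RNA can mean fewer cells with the transcript or less of it per cell, which cannot be told apart. Within each group the libraries also differed along the GC content of the genes. Across 10380 genes, and genes are not replicates, Spearman's rho with GC content was 0.78 for CYR61 2 minus CYR61 1 and -0.73 for vector 2 minus vector 1, and it was -0.19 for the difference between the groups. The trend within groups is part of the spread that the p-values measure, and it cannot be told apart from differences between cultures.

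Of the 10 members, 4 fell and 0 rose in CYR61-expressing cells, where a fall or rise means an adjusted p below 0.05 by edgeR's quasi-likelihood test across all genes. AXL, NT5E, CRIM1 and DOCK5 fell by 1.38-fold to 1.57-fold, and no member differed by 2-fold. The other 6 were not called. DESeq2 and limma-voom also called 4 members lower and 0 higher, but edgeR called 0 lower without vector 1, 0 without vector 2, 1 without CYR61 1, 3 without CYR61 2 and 3 with RLE size factors. All 10 had passed the filter on low counts. Over all 12698 tested genes, 6.39% were called, 4.56% lower and 1.83% higher. The median log2 fold change was -0.29 over the 10 members and -0.01 over all tested genes. At an unadjusted p below 0.05, 6 members were lower and 1 was higher, and 22.9% of all tested genes reached that level in either direction.

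**Figure D1:**
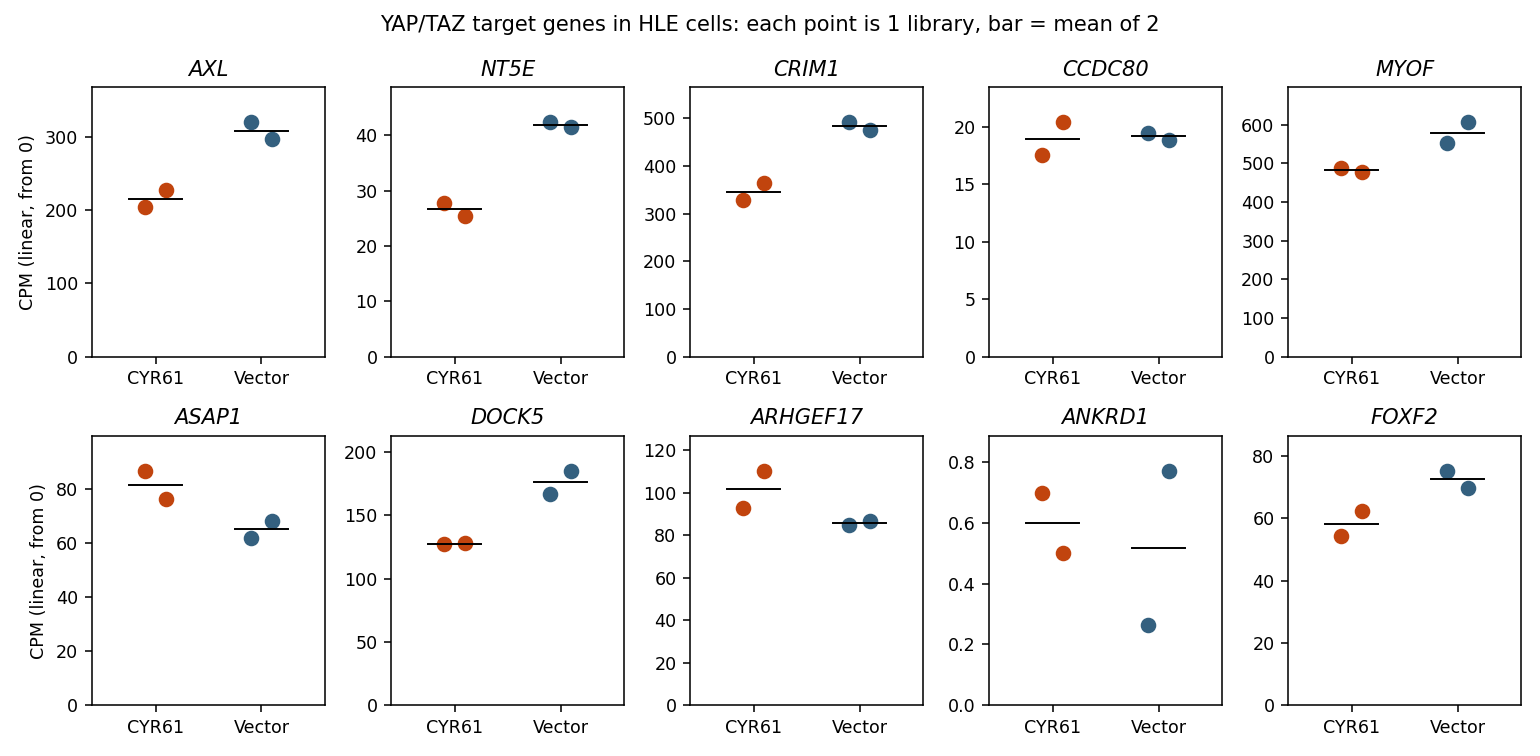
Level of each target gene in CPM on a linear axis from 0, with 1 point per library (CYR61 left, Vector right) and a bar at the mean of the 2 libraries. The CYR61 points lie below the vector points for 6 genes and above them for ASAP1 and ARHGEF17, and they overlap for CCDC80 and ANKRD1.

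Agreement over single libraries was read from the 4 ratios of a CYR61 library to a vector library. All 4 ratios lay below 1 for AXL, NT5E, CRIM1, DOCK5, MYOF and FOXF2, and all 4 lay above 1 for ASAP1 and ARHGEF17. So the groups did not overlap for 8 of the 10 genes, 6 lower and 2 higher. With 2 libraries a group this is common, since 27.7% of all tested genes lay lower and 23.9% higher without overlap.

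Among the members at the cell surface, AXL is a receptor tyrosine kinase whose ligand is GAS6 (ENSG00000167601, hg38 chromosome 19, 41219203 to 41261766, plus strand). AXL stood at 204 and 227 CPM in the CYR61 libraries, against 319 and 297 CPM in the vector libraries. Both CYR61 libraries were below both vector libraries, and the 4 single-library log2 ratios ran between -0.65 and -0.39. The log2 fold change was -0.52 (SE 0.11, 95% interval -0.77 to -0.26, edgeR adjusted p = 0.0253). The call was lost without vector 1 (log2 fold change -0.46, SE 0.19), without vector 2 (-0.56, SE 0.19) or without CYR61 1 (-0.43, SE 0.18). It held without CYR61 2 (-0.59, SE 0.18). Exons of AXL share 67 bases with an antisense RNA, whose reads cannot be told apart without strand.

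NT5E encodes CD73, the surface nucleotidase that makes adenosine from AMP (ENSG00000135318, chromosome 6, 85449584 to 85495791, plus strand). It had the largest difference of the 10, at 27.8 and 25.5 CPM in CYR61-expressing cells and 42.4 and 41.5 CPM in vector cells. The groups were far apart relative to their spread, with means of 26.7 ± 1.64 and 41.9 ± 0.614 CPM (SD, n = 2 each). The log2 fold change was -0.65 (SE 0.14, 95% interval -0.96 to -0.35, edgeR adjusted p = 0.0215), or 1.57-fold lower. The call was lost without vector 1 (log2 fold change -0.64, SE 0.23) and without vector 2 (-0.66, SE 0.23). It held without CYR61 1 (-0.705, SE 0.21) and without CYR61 2 (-0.59, SE 0.20).

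CRIM1, a transmembrane protein with cysteine-rich repeats that binds bone morphogenetic proteins, was the second most abundant member per length (ENSG00000150938, chromosome 2, 36355926 to 36551135, plus strand). Its CPM was 328 and 364 in the CYR61 libraries and 492 and 475 in the vector libraries. These groups did not overlap, and the ratios of single libraries ran between -0.58 and -0.39 on the log2 scale. CRIM1 had a log2 fold change of -0.48 (SE 0.11, 95% interval -0.73 to -0.24, edgeR adjusted p = 0.0295). Leaving out vector 1 (log2 fold change -0.46, SE 0.18), vector 2 (-0.50, SE 0.19) or CYR61 1 (-0.40, SE 0.18) ended the call. An antisense RNA shares 177 bases with its exons.

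CCDC80, a secreted protein that associates with the matrix, was the member that differed least (ENSG00000091986, chromosome 3, 112596794 to 112649530, minus strand). It was at 17.5 and 20.4 CPM in CYR61-expressing cells and at 19.5 and 18.8 CPM in vector cells. The groups overlapped, and the log2 fold change was -0.02 (95% interval -0.37 to 0.34, edgeR adjusted p = 0.961). The sign turned to 0.01 without vector 1 and to 0.10 without CYR61 1.

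MYOF, myoferlin, is a membrane-anchored calcium-binding protein of membrane repair and fusion and the most abundant member (ENSG00000138119, chromosome 10, 93306429 to 93482317, minus strand). Its level was 489 and 478 CPM in the CYR61 libraries, against 553 and 606 CPM in the vector libraries. Both CYR61 values were the lower ones, by a log2 fold change of -0.26 (SE 0.11, 95% interval -0.50 to -0.02). This was not called (edgeR adjusted p = 0.183).

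Among the regulators of small GTPases, DOCK5, an exchange factor that activates RAC, fell, while ASAP1 and ARHGEF17 were at higher values without passing the test. DOCK5 (ENSG00000147459, chromosome 8, 25184723 to 25418082, plus strand) was at 127 and 128 CPM in CYR61-expressing cells and at 167 and 185 CPM in vector cells. The CYR61 libraries were nearly equal and both below the vector libraries. DOCK5 had a log2 fold change of -0.46 (SE 0.11, 95% interval -0.72 to -0.21, edgeR adjusted p = 0.0398). Its adjusted p was the largest of the 4 calls, and the call was lost with RLE size factors in place of TMM (edgeR adjusted p = 0.0528). It was also lost without vector 1 (log2 fold change -0.535, SE 0.19), vector 2 (-0.38, SE 0.20), CYR61 1 (-0.44, SE 0.18) or CYR61 2 (-0.47, SE 0.18).

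ASAP1, which turns off ARF GTPases and acts at focal adhesions (ENSG00000153317, chromosome 8, 130052104 to 130443660, minus strand), was at 86.8 and 76.6 CPM in the CYR61 libraries and at 62 and 68.4 CPM in the vector libraries. Both CYR61 values were above both vector values, with a log2 fold change of 0.33 (SE 0.13, 95% interval 0.04 to 0.61, edgeR adjusted p = 0.158), not a call. ARHGEF17, an exchange factor for RHOA (ENSG00000110237, chromosome 11, 73308289 to 73369388, plus strand), was at 92.8 and 110 CPM, against 84.7 and 86.8 CPM in vector cells. The groups did not overlap, with a log2 fold change of 0.24 (SE 0.13, 95% interval -0.04 to 0.52, edgeR adjusted p = 0.288). An antisense RNA shares 966 bases with its exons.

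Of the members in the nucleus, ANKRD1, an ankyrin repeat cofactor best known from heart muscle, was barely detected (ENSG00000148677, chromosome 10, 90912096 to 90921276, minus strand). It had 15 and 8 estimated counts in the CYR61 libraries and 5 and 17 in the vector libraries, or 0.698 and 0.501 CPM against 0.265 and 0.77 CPM. The lowest and the highest of the 4 values were both from vector cells. The log2 fold change of 0.20 had a 95% interval from -1.12 to 1.51 (edgeR adjusted p = 0.885), so a change of 2-fold in either direction lies within it. Without vector 2 the value was 1.18, and it was -0.34 without vector 1 and -0.07 without CYR61 1. The TEAD letters before its start, shown above, thus stand beside a gene with almost no reads in these cells.

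FOXF2, a forkhead transcription factor of mesenchymal cells (ENSG00000137273, chromosome 6, 1389576 to 1395603, plus strand), was at 54.3 and 62.2 CPM in CYR61-expressing cells and at 75.1 and 69.8 CPM in vector cells. Both CYR61 libraries were lower. The log2 fold change was -0.32 (SE 0.13, 95% interval -0.60 to -0.03), which did not pass the test (edgeR adjusted p = 0.174). A microRNA gene on the opposite strand shares 98 bases with its exon.

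**Figure D2:**
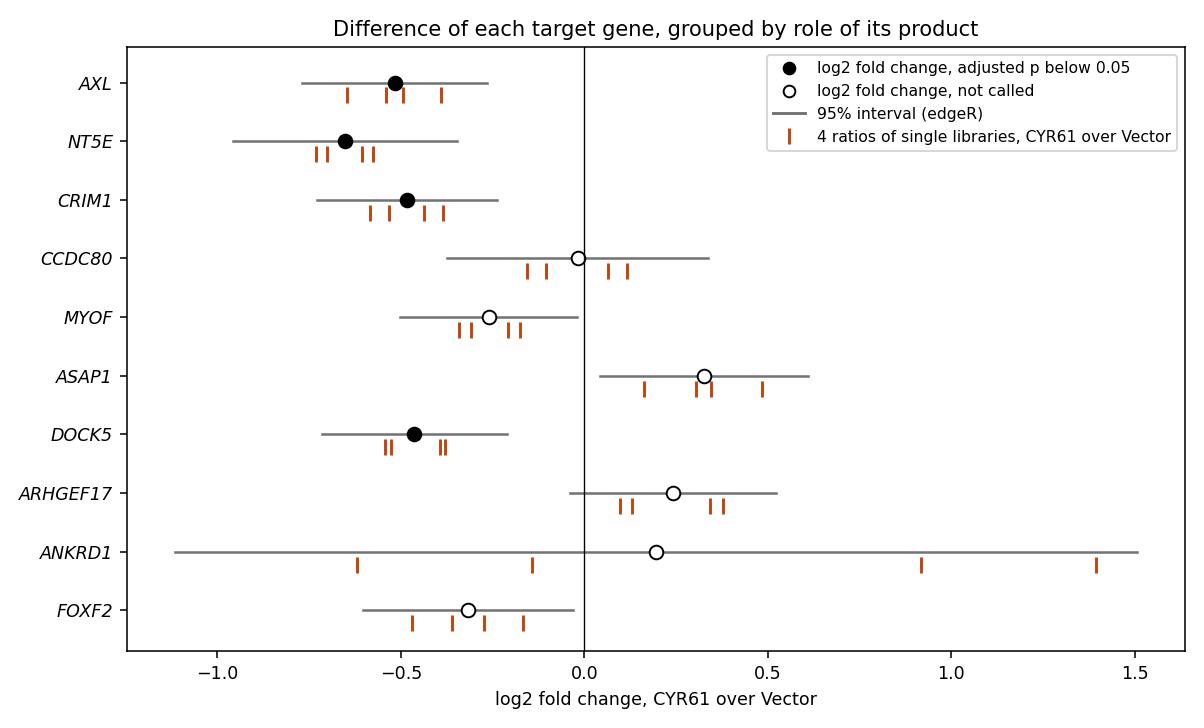
Log2 fold change of CYR61 over Vector for each target gene (circle, filled where the edgeR adjusted p is below 0.05) with its 95% interval (line) and the 4 ratios of single libraries (ticks). The filled circles are AXL, NT5E, CRIM1 and DOCK5, between -0.65 and -0.46, and the interval of ANKRD1 runs from -1.12 to 1.51.

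Per kilobase of exon, the level of the members covered a wide range. In the CYR61 libraries MYOF was highest (57.8 and 56.5 CPM per kb), then CRIM1 (46.1 and 51), AXL (39.6 and 44) and FOXF2 (22.2 and 25.4). ARHGEF17 (9.36 and 11.1) and ASAP1 (10.5 and 9.25) overlapped in CYR61-expressing cells and were followed by DOCK5 (7.95 and 8.03), NT5E (6.14 and 5.63), CCDC80 (1.34 and 1.56) and ANKRD1 (0.353 and 0.253). The vector libraries gave the same order for the first 4 genes, with MYOF (65.3 and 71.5 CPM per kb) and CRIM1 (69 and 66.7) overlapping, and for the last 2. Between them stood DOCK5 (10.5 and 11.6), NT5E (9.35 and 9.15), ARHGEF17 (8.55 and 8.76) and ASAP1 (7.49 and 8.26). NT5E and DOCK5 were thus above ARHGEF17 and ASAP1 in vector cells and below them in CYR61-expressing cells. This order depends on the joined exon lengths, which can differ from the transcripts made in these cells. NT5E and ARHGEF17 lay close in vector cells, and ARHGEF17 and ASAP1 were not called.

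The trend on GC content bears on the calls of these genes. After the trend was taken out of each library, 5 members were lower and 2 higher, beside 12.6% of all tested genes lower and 14.3% higher, 26.9% in all. MYOF (log2 fold change -0.26, adjusted p by edgeR = 0.0131) joined the lower genes, and ASAP1 (0.30, 0.0098) and ARHGEF17 (0.34, 0.0142) were the higher ones. For MYOF and ASAP1 the values stayed close to those reported, while the SE went from 0.11 to 0.06 and from 0.13 to 0.06. With the replicate block as well, MYOF was not called (adjusted p by edgeR = 0.0648). The members of highest GC content moved most. FOXF2 (62.6% GC) was at -0.20 with the trend removed and -0.32 with it left in, ARHGEF17 (61%) at 0.34 and 0.24, and AXL (59.2%) at -0.42 and -0.52. The values of the other 7 moved by at most 0.04. The median GC content of the tested genes was 50.4%. Whether GC content sets these differences was not tested further.

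**Figure D3:**
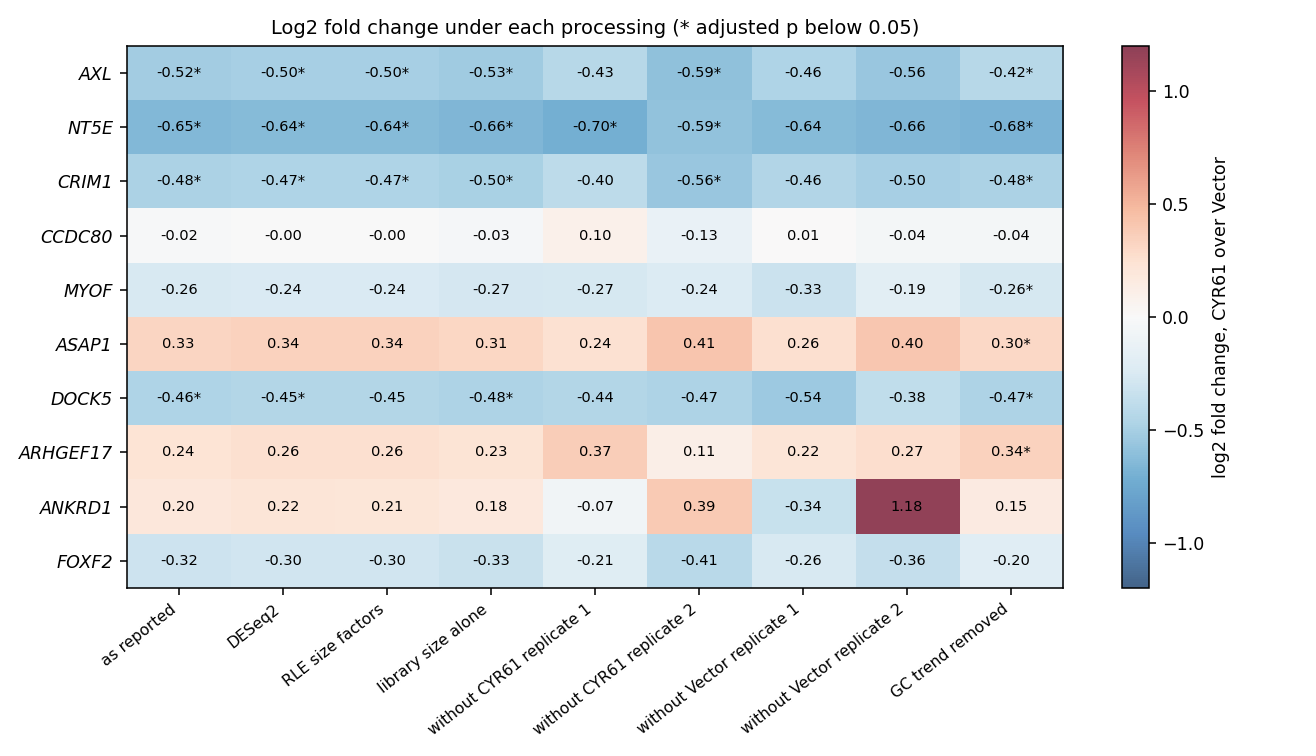
Log2 fold change of CYR61 over Vector for each target gene (rows) as reported and under 8 other ways of processing (columns), with an asterisk where the adjusted p is below 0.05. AXL, NT5E, CRIM1 and DOCK5 stay below 0 in every column shown, while ANKRD1 runs from -0.34 to 1.18.

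The other genes of the 22-gene set, with CYR61 left out as the introduced gene, moved in both directions. Of these 11 genes, all tested, 2 fell and 1 rose, with a median log2 fold change of -0.13. At an unadjusted edgeR p below 0.05, 5 were lower and 2 higher, against 6 lower and 1 higher for the members. The groups did not overlap for 6 lower and 2 higher genes, the same counts as for the members. Of all tested genes, 22.9% reached that unadjusted level, and 27.7% lay lower and 23.9% higher without overlap. Over all tested genes, 4.56% fell and 1.83% rose. IGFBP3, which binds insulin-like growth factors outside the cell, was at 74.7 and 67.2 CPM in CYR61 libraries and 158 and 146 CPM in vector libraries (log2 fold change -1.10, edgeR adjusted p = 0.000832). GADD45A, a stress-induced gene of growth arrest, was at 17.8 and 21.4 CPM, against 41.5 and 36.7 CPM in vector cells (-0.999, edgeR adjusted p = 0.00515). FJX1, a relative of a planar polarity kinase of the fly, rose, at 35.2 and 36.7 CPM in CYR61-expressing cells and 21.3 and 22.1 CPM in vector cells (0.72, edgeR adjusted p = 0.0151), a call lost without vector 1 (0.0882). CCN2, another CCN family gene and standard YAP readout, was at 56.6 and 74.1 CPM against 57.9 and 53.6 CPM (0.23, 95% interval -0.11 to 0.56, edgeR adjusted p = 0.402).

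Further targets outside that set were also mixed. Of 10 such genes, 9 were tested, 1 fell and 1 rose, with a median of -0.12. This stands beside 4.56% of all tested genes lower and 1.83% higher. Of the 9, 3 were lower and 1 was higher at an unadjusted edgeR p below 0.05. Without overlap of the groups, 4 lay lower and 2 higher. After removal of the GC trend, 2 were lower and 1 higher, beside 12.6% of all tested genes lower and 14.3% higher. TGM2, a transglutaminase, was at 75 and 83.6 CPM, against 143.5 and 129.9 CPM in vector cells (log2 fold change -0.79, edgeR adjusted p = 0.00489), and it shares 394 bases of exon with RPRD1B on the other strand. AMOTL1, a scaffold that binds YAP, was at 83.1 and 80.7 CPM in CYR61-expressing cells and 61.3 and 56.8 CPM in vector cells (0.47, edgeR adjusted p = 0.0462). That call was lost with library size alone (edgeR adjusted p = 0.0537) and with the filter of 5 CPM (0.0503). It was also lost without vector 1 (log2 fold change 0.53), vector 2 (0.43), CYR61 1 (0.46) or CYR61 2 (0.50).

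Of 14 genes for YAP, TAZ, the TEAD proteins, VGLL4 and the Hippo kinases with their adaptors, 0 were called by edgeR, DESeq2 or limma-voom, 0 had an unadjusted edgeR p below 0.05, and their median was 0.06. The most abundant, TEAD1, was at 403 and 352 CPM in CYR61 libraries and 380 and 464.5 CPM in vector libraries (log2 fold change -0.16, 95% interval -0.45 to 0.13, edgeR adjusted p = 0.495). After removal of the GC trend, 1 of the 14 was lower and 1 higher, beside 12.6% of all tested genes lower and 14.3% higher. Without that removal, edgeR called 6.39% of all tested genes, and 22.9% had an unadjusted edgeR p below 0.05. RNA levels do not show the phosphorylation or location of YAP and TAZ.

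Among 33 ligands, relatives and partners of the members, 26 were tested, 2 fell and 0 rose, with a median of -0.15. DESeq2 and limma-voom also called 2 lower and 0 higher, and at an unadjusted edgeR p below 0.05 there were 7 lower and 1 higher. These counts stand beside 4.56% of all tested genes called lower, 1.83% called higher and 22.9% with an unadjusted edgeR p below 0.05. GAS6, the ligand of AXL, was at 11 and 12.8 CPM in CYR61-expressing cells and 24.7 and 18.3 CPM in vector cells (log2 fold change -0.86, SE 0.19, edgeR adjusted p = 0.0281). Both GAS6 values of CYR61 libraries were lower, and the call was lost without vector 1 (-0.62, edgeR adjusted p = 0.19). An antisense RNA shares 421 bases with its exons. ASAP3, a relative of ASAP1, was at 14.4 and 15.8 CPM against 26.8 and 24.4 CPM (-0.76, edgeR adjusted p = 0.0199) and was not called without vector 1 (0.102). ASAP3 was thus lower where ASAP1 was at higher values. The other 24 tested genes of this list were not called. After removal of the GC trend, 6 of the 26 were lower and 2 higher, beside 12.6% of all tested genes lower and 14.3% higher. With the replicate block and the trend left in, 0 were lower and 0 higher.

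**Figure D4:**
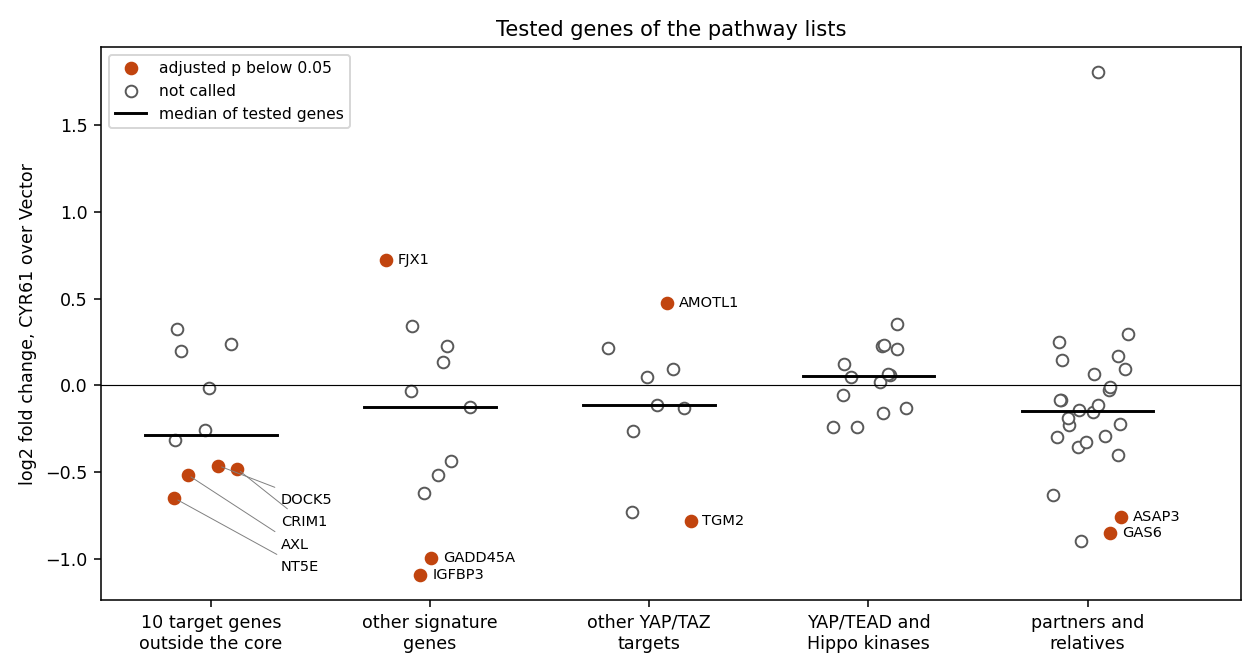
Log2 fold change of CYR61 over Vector for the tested genes of each list, filled where the edgeR adjusted p is below 0.05, with a line at the median of the list. The medians were -0.29, -0.13, -0.12, 0.06 and -0.15 from left to right, and IGFBP3 at -1.10 was the lowest gene.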

How the data were processed

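RNA of 4 HLE libraries was sequenced. For each library the authors deposited estimated counts per gene, of which 11.2% to 12% of the values were not whole. Per the submitters' processing notes, the build was hg38 and the tools included Cuffdiff 1.3.0, Cufflinks 2.2.1 and TopHat2 2.1.1. Not given in the sources used here were the counting program, annotation release and strandedness. Counts were rounded to whole numbers, filtered with filterByExpr of edgeR 4.0.16 (R 4.3.3), which left 12698 genes, scaled by TMM and tested across all genes with glmQLFit and glmQLFTest with group as the only term. P-values were adjusted by Benjamini-Hochberg, and genes below 0.05 were called. Standard errors were taken from the log2 fold change and the F statistic. Scripts were tested on simulated data. Symbols came from a gene name table, and positions, exon lengths and GC content from GENCODE 29 on GRCh38. CPM per kb divides by the length of the joined exons. All 10 members were named whatever their test. Of the other lists the called genes were named, with CCN2 and, where none was called, the most abundant gene. The members and lists were chosen with earlier results of these data known. Same-numbered libraries deviated in opposite directions (correlation across genes -0.71), so replicate numbers were not taken to pair them. Alternatives included DESeq2 1.42.0 and limma-voom (limma 3.58.1). No member shares exon bases with another gene in the files. A further listed target is not reported here and was left out of its list's counts.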

Additional observations from a re-analysis of the deposited data

How the results depend on the processing

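Over 17 alternatives, 139 of 169 values of the 10 members kept their sign and their side of the threshold, 17 calls were lost, 9 were gained and 4 signs turned. This tally includes the block with crossed numbers, chosen from these same data. That block gave gained calls for MYOF, ASAP1, FOXF2 and ARHGEF17. ANKRD1 in DESeq2, without an adjusted p, was tallied as not called. The turned signs were ANKRD1 (-0.34 without vector 1 and -0.07 without CYR61 1, against 0.20 as reported and up to 1.18 without vector 2) and CCDC80 (0.01 and 0.10, against -0.02 as reported and -0.13 without CYR61 2). The number of lower members was 4 as reported, 0 to 3 with 1 library left out, 3 with RLE size factors and 0 with the replicate block. The number of higher members was 0 as reported and 2 with the GC trend removed, with or without the replicate block. With the GC trend removed, the number of lower members was 5 without the block and 4 with it. Of the other 11 signature genes, 1 was higher as reported, 0 with the replicate block, 0 to 1 with 1 library left out and 2 with the GC trend removed, with or without the block. A block with crossed numbers, added after the data were seen, gave 6 lower and 2 higher members and 4 lower and 3 higher other signature genes. Over all genes, 579 lower and 232 higher calls became 1029 and 648 without a filter, 589 and 356 with DESeq2, 338 and 53 with the replicate block, 377 and 104 without vector 1, 793 and 538 without CYR61 2, 1602 and 1812 after removal of the GC trend, 1218 and 1301 with that and the block, and 2876 and 2748 with the crossed block. ANKRD1 was not tested under the filter of 5 CPM in 2 libraries and had no adjusted p in DESeq2. With 1 library left out, the single library of a group is assumed to vary like the others. With 2 libraries per group, the intervals are wide, and ANKRD1 had at most 17 counts in a library. The causes were not tested.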

Other observations

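Among the other signature genes, 10 had a RefSeq window around the start. The TEAD letters were present for 6 of them, CCN2, AMOTL2, LATS2, PTPN14, NUAK2 and TGFB2, beside 14% of 35116 windows of all genes. That share counts windows and not genes, and AMOTL2 had 2 windows, with a match only at its second start. CCN2 held 3 matches, all within 169 bases before its start. Among the called members and called signature genes, the windows of IGFBP3, FJX1 and NT5E held none, while AXL held 1 match at its second start. The bases before the RefSeq start of NT5E lie in GENCODE exons. No window was matched for GADD45A, CRIM1 and DOCK5. A relation between the letters and the differences was not tested. These are counts of letters in short windows, with no test.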
